A study of Arabidopsis thaliana with 8 samples.

Results

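The genes described here are 39 Arabidopsis thaliana genes known for a fast and short-lived rise of their transcripts after touch, cold or wounding. They were chosen by gene identifier: the touch genes TCH2, TCH3 and TCH4 with 2 calmodulin-like genes, the cold regulators CBF1 to CBF3, 3 C2H2 zinc fingers, 8 WRKY and 5 ERF transcription factors, 2 CCCH zinc fingers with 2 CAF1 deadenylases, 6 genes of kinase, membrane and ubiquitin proteins, 3 RAV factors and 2 MYB factors. The choice was made with earlier results of these data known, so shares of these genes set beside shares of all genes are descriptions. All 39 identifiers were in the table, which lists 19853 genes in all. The sequenced RNA came from inflorescences whose flowers had not passed stage 8. There were 4 genotypes and 2 libraries of each, 8 in all, numbered replicate 1 and replicate 2: the wild type Ler (Landsberg erecta), the single mutants ag-10 and fhy3-68, and the double mutant ag-10 fhy3-68. FHY3 is a transcription factor of phytochrome A signalling that derives from a transposase, and AG (AGAMOUS) specifies stamens and carpels. The labels name the alleles without their lesions, and they do not say how many plants entered a library or how and when the tissue was cut.

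Plant cells answer bending, chilling, wounding or contact with a microbe within minutes through calcium influx and MAP kinase cascades. The first transcripts to rise encode calcium-binding proteins, transcription factors, RNA-binding proteins and ubiquitin ligases, many of them unstable, and most fall again soon after. Both the spread between the 2 libraries of a genotype and the spread between genotypes are given below.

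Library totals and the identity of the mutants bear on all values that follow. Listed genes took 12322061 to 16816619 reads per library, and 1 read was worth between 0.0598 and 0.0793 in the deposited unit, normalised reads on a scale of 1000000. Transcripts of FHY3 (AT3G22170) stood between 103 and 110 in the 4 libraries without fhy3-68 and between 70.5 and 93.0 in the 4 with it, and their difference missed the threshold (log2 difference -0.31 ± 0.09 SE, limma adjusted p = 0.0558). AG was not analysed here. The 2 ag-10 libraries stood apart from each other on the first principal component of all genes, which held 60.7% of the variance, at -44.26 for replicate 1 and -17.94 for replicate 2, while the Ler libraries stood at -39.44 and -38.26 and the 4 libraries with fhy3-68 between 22.63 and 48.75. All 8 markers of young inflorescences (AP1, CAL, LFY, SEP3, AP3, PI, AP2 and STM) were present, with summed levels of 909 to 1061 in the 8 libraries. In the averaged fhy3-68 contrast described below, AP2 fell by 0.42 and AP3 by 0.41 on the log2 scale and SEP3 rose by 0.23 (limma adjusted p = 0.0203, 0.0481 and 0.0276), and the other 5 did not pass the test. Of 7 mature pollen markers 3 were listed, and their summed level was 6.46 and 26.7 for Ler, 2.82 and 12.0 for ag-10, 65.5 and 20.03 for fhy3-68, and 94.4 and 16.5 for the double mutant. Most of the sum was VGD1, at 63.7 in fhy3-68 replicate 1 and 85.4 in ag-10 fhy3-68 replicate 1. None of the 3 pollen markers passed the test in the averaged contrast. Of 4 markers of old or senescing leaves 3 were listed (NAP, SAG13 and SAG20), and their summed level was between 61.8 and 79.8 without fhy3-68 and between 137 and 236 with it. Of 4 markers of late flowers and nectaries 2 were listed, with summed levels between 54.8 and 86.6. In the same averaged contrast TPS11 rose by 0.33 ± 0.07 on the log2 scale (limma adjusted p = 0.018), and CWINV4 did not pass the test. In bulk tissue, fewer cells of a type and less RNA per cell cannot be told apart.

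The gene models and the sequence upstream of them describe the 39 genes apart from their levels. In the RefSeq annotation of the TAIR10.1 genome, 21 of the 39 genes (53.8%) consist of 1 exon, against 15.3% of the 19367 listed protein-coding genes, and their median spliced length is 1391 bases against 1732. CBF2, CBF3 and CBF1 lie next to each other on chromosome 4 with no other protein-coding gene between neighbours. The 250 bases before each annotated start were searched on both strands for 6 short motifs. The W-box, the binding site of WRKY factors (TTGACC or TTGACT), was found in 17 members (43.6%), against 27.5% of all 19366 windows. The GCC box of ERF factors (GCCGCC) was found in 4 members (10.3%) against 1.87% of all windows, the CAMTA site of calmodulin-binding activators (CGCGT) in 4 (10.3%) against 7.44%, the DRE core bound by CBF proteins (CCGAC) in 4 (10.3%) against 12.7%, and the G-box (CACGTG) in 3 (7.69%) against 7.26%. The letters CACGCGC, known as the FHY3 binding site and overlapping the CAMTA letters read on the other strand, were in none of the 39 windows and in 1.34% of all windows. A match of letters is a description of the reference, the Columbia accession, and not evidence of binding in these Landsberg plants.

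Stretches upstream of 5 members follow, each read 5′ to 3′ toward the gene and ending at the base before the RefSeq start, with the motif matches in capitals (TAIR10.1). SZF1 and SZF2 are paralogous CCCH zinc finger genes whose levels moved together below, as those of most members did. They are shown because they share the 19-base block ttTTGACTtTTGACCtaaa, which holds 2 W-boxes with 1 base between them and ends 40 bases before the start of SZF1 and 22 bases before that of SZF2. This W-box pair occurs in 7 of the 19366 windows. It was read from these 2 windows first, so their place among the 7 was given in advance. TCH2 is shown for a CAMTA site that occurs in 2 palindromic copies (ACGCGT), and ZAT10 and ZAT6 because each holds a GCC box (in capitals as its reverse complement GGCGGC) and a DRE core, a combination found in these 2 members and in 95 windows of all genes (0.491%). The windows are chr3:20776070-20776219 (plus strand) for SZF1, chr2:16771847-16771996 (plus strand) for SZF2, chr5:14999620-14999769 (minus strand) for TCH2, chr1:9649324-9649473 (minus strand) for ZAT10 and chr5:1217363-1217612 (minus strand) for ZAT6.
SZF1: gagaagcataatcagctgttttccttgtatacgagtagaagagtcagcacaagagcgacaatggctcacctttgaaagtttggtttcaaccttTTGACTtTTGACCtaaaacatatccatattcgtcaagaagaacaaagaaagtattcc
SZF2: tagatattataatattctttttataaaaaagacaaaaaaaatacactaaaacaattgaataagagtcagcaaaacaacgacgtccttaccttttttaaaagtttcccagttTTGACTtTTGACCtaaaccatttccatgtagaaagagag
TCH2: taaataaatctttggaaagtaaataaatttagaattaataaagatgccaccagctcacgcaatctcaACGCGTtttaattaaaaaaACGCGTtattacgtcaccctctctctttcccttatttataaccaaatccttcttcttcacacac
ZAT10: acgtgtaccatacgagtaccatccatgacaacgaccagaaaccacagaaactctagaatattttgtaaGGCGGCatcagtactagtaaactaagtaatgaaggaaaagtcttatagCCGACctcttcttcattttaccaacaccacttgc
ZAT6: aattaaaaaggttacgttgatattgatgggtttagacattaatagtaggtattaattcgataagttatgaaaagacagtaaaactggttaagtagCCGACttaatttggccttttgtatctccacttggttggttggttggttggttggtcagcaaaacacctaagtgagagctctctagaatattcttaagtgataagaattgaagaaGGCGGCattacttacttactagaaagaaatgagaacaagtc

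The first comparison sets the spread between libraries of 1 genotype beside the spread between genotypes. The 39 genes varied far more between replicate libraries than most genes did. Their median within-genotype standard deviation (SD), pooled over the 4 genotypes on the log2(value + 0.5) scale, was 0.76 (range 0.10 to 1.41), against 0.15 over all 19853 genes and 0.08 over 10 reference genes. The spread of the 4 genotype means was wider still, with a median SD of 1.24 against 0.14 over all genes. The SD between genotypes was larger than the SD within them for 32 of the 39 genes (82.1%), against 46.5% of all genes. Each genotype mean rests on 2 libraries, so the SD between genotypes includes part of the spread within them.

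Ranked by within-genotype SD, 28 of the 39 genes were among the top 5% of all genes and 34 among the top 10%, and 31 were among the top 5% by the SD between genotypes. The ratio of the SDs had a median of 1.43 (0.94 over all genes) and exceeded 2 for 6 members (15.4%), PHI-1, WRKY18, WRKY22, TEM2, CML38 and WRKY11, against 12.5% of all genes. A limma moderated F test, which asks whether the 4 genotypes differ beyond the spread within them, called 5 of the 39 genes, against 2.6% of all genes. These were WRKY18 (adjusted p = 0.0186), PHI-1 (0.0195), WRKY22 (0.0352), TEM2 (0.0372) and CML38 (0.0419). PHI-1 was below 1 in every library without fhy3-68, so it reached the minimum for a listed gene, a value of 1 in 2 libraries, only through libraries with the mutation. The F test called 0 members when either Ler library was left out, where it called 0.0101% of all genes, and 1 without ag-10 replicate 1, where it called 0.539%. DESeq2 called 20 members and 9.6% of all genes.

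**Figure D1:**
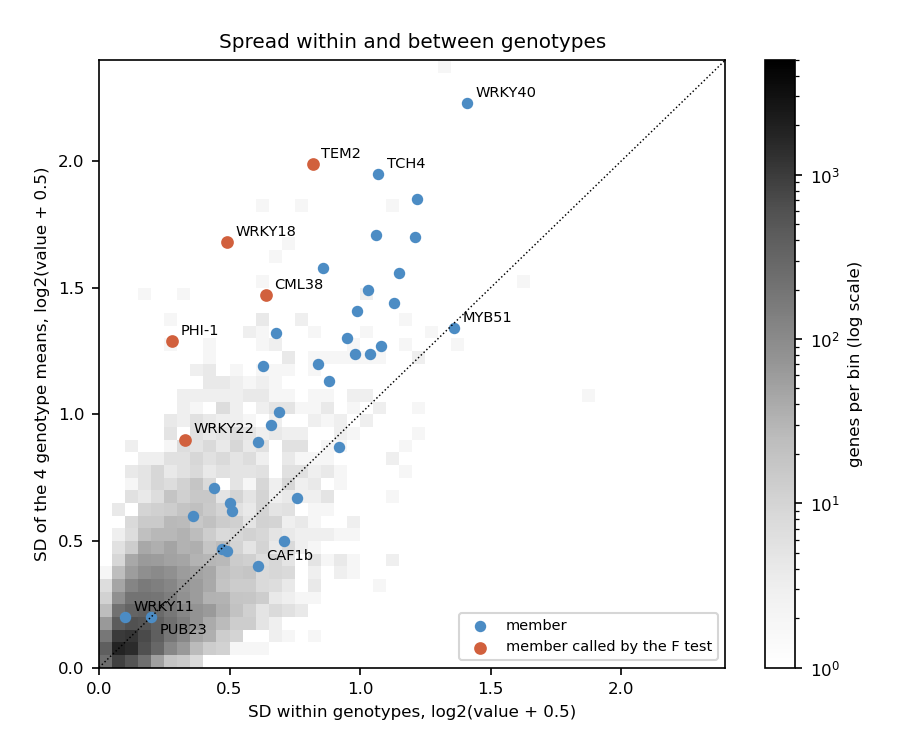
Each point is 1 of the 39 genes, with the SD within genotypes on the x axis and the SD of the 4 genotype means on the y axis, both on the log2(value + 0.5) scale, and the grey shading counts all 19853 genes per bin, with genes above 2.4 placed in the last bin. Most of the 39 genes lie above the dotted line of equal spread and far to the right of the bulk of genes, and the 5 genes called by the F test (red) lie highest for their within-genotype SD.

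The genes with the widest spread within genotypes were WRKY40 (SD 1.41), which restrains defence responses, MYB51 (1.36), an activator of indole glucosinolate synthesis, and ZAT10 (1.22), a repressor induced by salt, cold and wounding. Levels are given below in normalised reads, with replicate 1 before replicate 2. The level of WRKY40 (AT1G80840) was 8.16 and 1.98 for Ler, 0.78 and 11.4 for ag-10, 55.8 and 85.7 for fhy3-68 and 32.6 and 86.7 for the double mutant. MYB51 (AT1G18570) stood at 0.71 and 0.40 for Ler, 0.28 and 5.59 for ag-10, 3.64 and 11.5 for fhy3-68 and 2.99 and 12.4 for the double mutant. For MYB51 the ag-10 replicate 2 library was higher than fhy3-68 replicate 1, so the libraries with and without fhy3-68 overlapped. For WRKY40 they did not overlap, although its ag-10 libraries alone differed from 0.78 to 11.4. The narrowest spread was found in WRKY11 (SD 0.10), a negative regulator of basal resistance, in PUB23 (0.20), a ubiquitin ligase that dampens immune signalling, and in PHI-1 (0.28), first described in tobacco as a gene induced by phosphate.

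The replicate libraries differed in the same way for nearly all members at once. In Ler, replicate 1 was the higher library for 36 of the 39 genes (92.3%, against 49.6% of all genes), with a median log2 difference of -0.91 for replicate 2 minus replicate 1. In ag-10 replicate 2 was the higher library for 36 (92.3%, against 50.3%), with a median of 1.55, and 26 of the 39 were at least 2-fold higher there, against 2.49% of all genes. In ag-10 fhy3-68 replicate 2 was the higher one for 38 (97.4%, against 49.5%), with a median of 0.92, and CBF3 was the exception. In fhy3-68 replicate 2 was higher for 26 and replicate 1 for 13, with a median of 0.20. The pattern of a higher replicate 1 in Ler and a higher replicate 2 in ag-10 and in ag-10 fhy3-68 was shown by 34 members (87.2%), against 12.2% of all genes, and the others were CBF3, WRKY11, WRKY6, WRKY22 and PUB23.

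**Figure D2:**
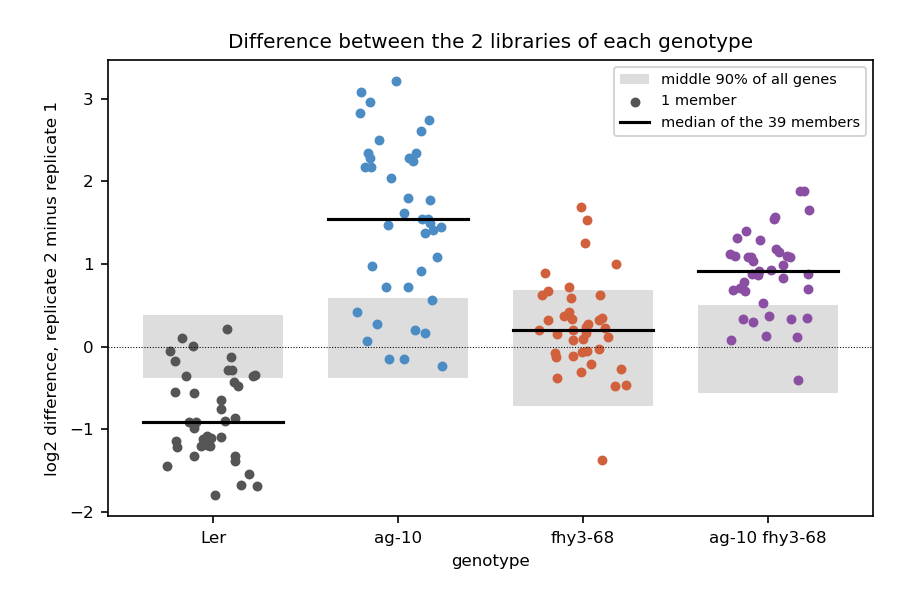
Log2 difference between the 2 libraries of each genotype (replicate 2 minus replicate 1, y axis) for the 39 genes, 1 point a gene, with the median as a black line and the grey band spanning most of all genes. The points lie mostly below 0 in Ler (median -0.91), above 0 in ag-10 (median 1.55) and in ag-10 fhy3-68 (median 0.92), and around 0 in fhy3-68 (median 0.20).

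Set against the mean of each gene over the 8 libraries, the median deviation of the 39 genes was -0.47 and -1.53 for Ler, -1.75 and -0.16 for ag-10, 1.15 and 1.35 for fhy3-68, and 0.23 and 1.14 for the double mutant, where the median of all genes was within 0.01 of 0. The lowest library was ag-10 replicate 1 for 30 of the 39 genes. The highest was fhy3-68 replicate 2 for 23, fhy3-68 replicate 1 for 12 and ag-10 fhy3-68 replicate 2 for 4. Across the 8 libraries each member was set against the median profile of the other members: Pearson's r had a median of 0.96 and was above 0.9 for 30 members, over points that share libraries and normalisation. The members least like the rest were PUB23 (r = 0.07), CBF3 (0.58) and WRKY6 (0.69).

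**Figure D3:**
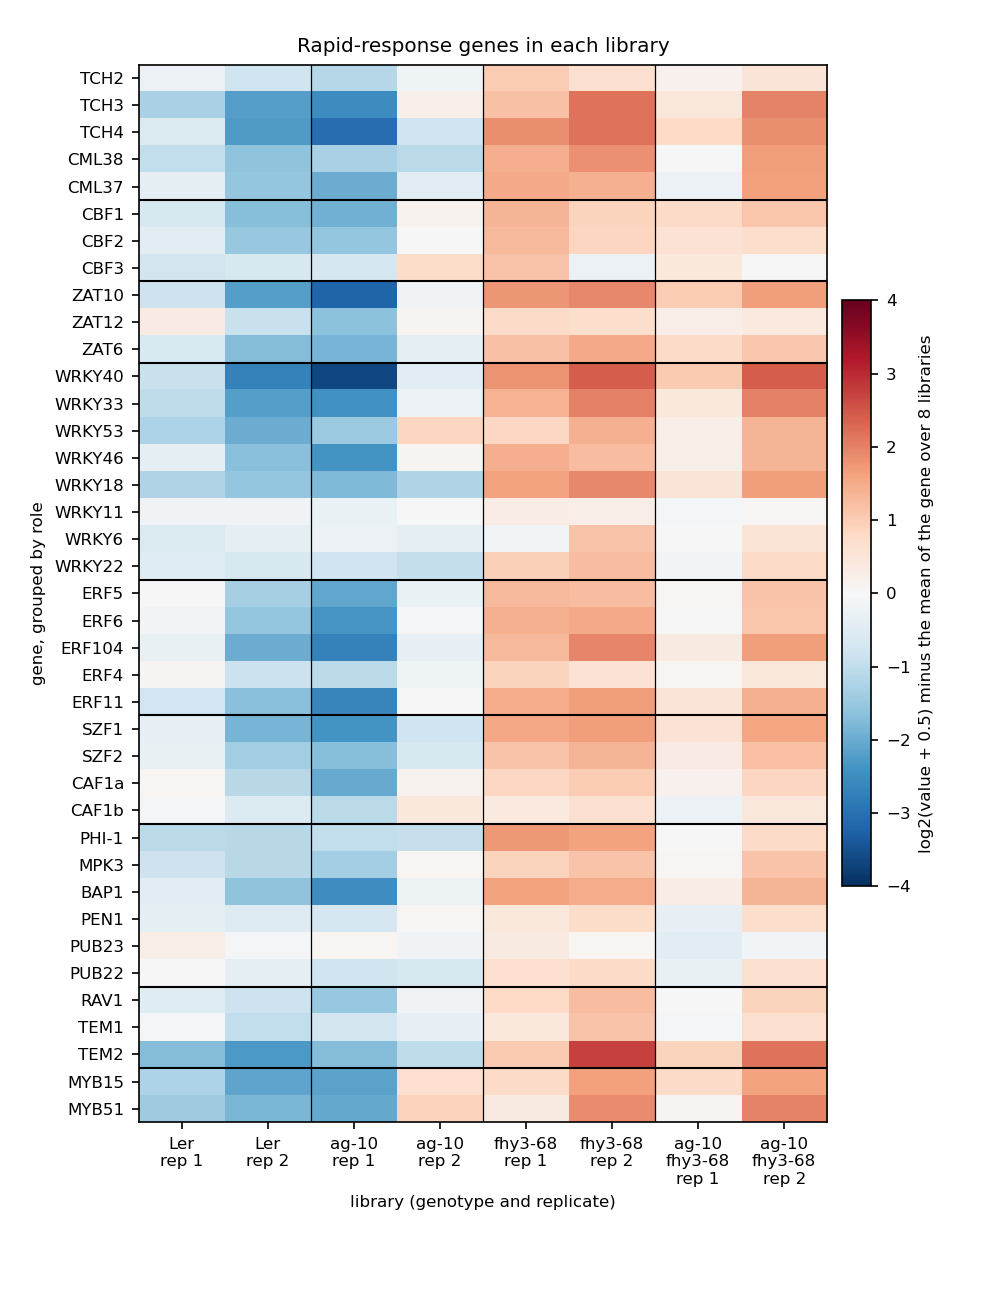
Deviation of log2(value + 0.5) from the mean of each gene over the 8 libraries, with genes in rows grouped by role and libraries in columns; blue is below the mean and red above it. The 4 columns with fhy3-68 are red for most genes, ag-10 replicate 1 is the bluest column and ag-10 fhy3-68 replicate 1 is paler than its replicate.

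The second comparison asks how these transcripts differed with the fhy3-68 mutation, averaged over plants with the wild-type AG gene and with ag-10. It rests on all 8 libraries, 4 with fhy3-68 and 4 without. Of the 39 genes 31 rose and none fell, where limma called 10.6% of all genes higher (17.9% in either direction). Because the genes were chosen with earlier results of these data known, the excess over all genes is not independent support. The median log2 difference of the 39 genes was 2.03 (range -0.05 to 3.85), against -0.01 over all genes, and 32 of them had a fitted difference of at least 1, against 4.69% of all genes. The libraries with fhy3-68 were all above the libraries without it for 28 of the 39 genes, against 14.3% of all genes. Of the 31 genes, PHI-1, PUB22 and MYB15 had fewer than 2 libraries without fhy3-68 at the minimum of 1, as did MYB51, which was not called, so a value of at least 1 with fhy3-68 was a condition for their presence. Without these 4 genes 28 of 35 members rose, against 9.96% of all genes after the same exclusion. The calls of PHI-1, PUB22 and MYB15, with all libraries or with 1 left out, are therefore not support. The 8 genes that missed the threshold were CBF3, ZAT12, WRKY6, CAF1a, CAF1b, PEN1, PUB23 and MYB51, with log2 differences of 0.66, 1.06, 0.78, 1.45, 0.63, 0.76, -0.05 and 2.19 in that order. The count of 31 dropped to 9 without Ler replicate 2, to 11 without ag-10 fhy3-68 replicate 2, to 17 without Ler replicate 1 and to 19 without fhy3-68 replicate 2, settings under which limma called 4.68%, 9.34%, 4.68% and 16.2% of all genes. TCH4, CML38, ZAT6, WRKY18, WRKY22, SZF1, SZF2, PHI-1 and TEM2 were called whichever single library was left out. Of the senescing leaf markers, NAP rose by 3.07 ± 0.35 and SAG20 by 1.02 ± 0.18 on the log2 scale (limma adjusted p = 0.00431 and 0.0128). SAG13 missed the threshold (0.95 ± 0.42, limma adjusted p = 0.149). The part of these markers, and of AP2, AP3, SEP3 and TPS11, in the rise of the members was not tested.

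The 5 touch genes and calmodulin-like genes all rose. TCH4 (AT5G57560), a xyloglucan endotransglucosylase/hydrolase that remodels the cell wall, stood at 68.4 and 21.0 for Ler, 12.0 and 58.9 for ag-10, 368 and 459 for fhy3-68 and 177 and 373 for the double mutant. TCH3 (AT2G41100), a calcium sensor with several calcium-binding domains, stood at 33.6 and 17.6 for Ler, 13.9 and 95.4 for ag-10, 187 and 374 for fhy3-68 and 113 and 331 for the double mutant. TCH2 (AT5G37770), a smaller calmodulin-like protein, stood at 119 and 81.1 for Ler, 63.8 and 127 for ag-10, 285 and 219.8 for fhy3-68 and 159 and 204 for the double mutant. For each of these genes both fhy3-68 libraries were above every Ler and ag-10 library, and the lowest value was that of ag-10 replicate 1. The averaged log2 difference was 3.33 ± 0.56 (SE) for TCH4, 2.90 ± 0.63 for TCH3 and 1.17 ± 0.23 for TCH2, with limma adjusted p = 0.0109, 0.0227 and 0.0172. The calcium sensors CML38 and CML37 act in wound and drought responses. CML38 (AT1G76650) was 6.24 and 3.81 for Ler, 4.94 and 5.74 for ag-10, 35.9 and 46.6 for fhy3-68 and 12.98 and 41.7 for the double mutant, and CML37 (AT5G42380) was 2.70 and 0.95 for Ler, 0.56 and 2.60 for ag-10, 11.4 and 10.8 for fhy3-68 and 3.06 and 12.7 for the double mutant. CML38 was close to the same level in the 4 libraries without fhy3-68, while ag-10 fhy3-68 replicate 1 was the lowest of the 4 with it in both genes. CML38 rose by 2.49 ± 0.34 (adjusted p = 0.00687) and CML37 by 2.17 ± 0.51 (adjusted p = 0.0281). TCH2 and TCH3 overlap gene models on the opposite strand, as do CBF3, MPK3 and PUB23, and whether the counting used strand is not given in the sources used here.

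Among the CBF genes, transcription factors that switch on cold-protection genes, CBF1 and CBF2 rose and CBF3 did not pass the test. CBF1 (AT4G25490) was 1.06 and 0.24 for Ler, 0.14 and 2.14 for ag-10, 5.73 and 3.96 for fhy3-68 and 3.60 and 4.66 for the double mutant. CBF2 (AT4G25470) was 5.53 and 2.30 for Ler, 2.26 and 7.58 for ag-10, 19.3 and 13.9 for fhy3-68 and 11.5 and 12.6 for the double mutant. CBF3 (AT4G25480) was 4.12 and 4.44 for Ler, 4.37 and 12.5 for ag-10, 16.6 and 6.12 for fhy3-68 and 9.79 and 7.23 for the double mutant. In contrast to most members, all 3 genes were higher in replicate 1 than in replicate 2 of fhy3-68, and CBF3 was higher in ag-10 replicate 2 than in 3 of the 4 libraries with fhy3-68. CBF1 in ag-10 replicate 1 rested on 2 reads and in Ler replicate 2 on 3. The averaged log2 difference was 2.06 ± 0.46 for CBF1 and 1.72 ± 0.37 for CBF2 (limma adjusted p = 0.0244 and 0.0222), and 0.66 ± 0.38 for CBF3 (adjusted p = 0.254). The 3 genes share few stretches of 50 bases with each other, 0.596% to 3.95% of those in a gene model, so little of their counts could be split between them.

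Of the C2H2 zinc fingers, ZAT10 and ZAT6 rose. ZAT10 (AT1G27730), introduced above, was 12.1 and 4.36 for Ler, 1.90 and 19.8 for ag-10, 74.9 and 83.1 for fhy3-68 and 44.3 and 70.7 for the double mutant. ZAT6 (AT5G04340), which acts in root phosphate responses and stress tolerance, was 8.37 and 3.57 for Ler, 3.24 and 9.88 for ag-10, 29.8 and 38.1 for fhy3-68 and 22.4 and 27.7 for the double mutant. ZAT12 (AT5G59820), a regulator of oxidative and cold responses, was 40.5 and 17.1 for Ler, 9.94 and 35 for ag-10, 55.0 and 53.3 for fhy3-68 and 39.1 and 42.7 for the double mutant. The Ler replicate 1 value of ZAT12 lay within the range of ag-10 fhy3-68, so its groups overlapped, whereas ZAT10 and ZAT6 had no overlap between libraries with and without fhy3-68. Averaged log2 differences were 3.18 ± 0.64 for ZAT10 (limma adjusted p = 0.0177), 2.27 ± 0.36 for ZAT6 (0.00949) and 1.06 ± 0.40 for ZAT12 (0.103).

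The WRKY group held the gene with the largest averaged difference of the 39, WRKY40 at 3.85 ± 0.74 (limma adjusted p = 0.0156), and the called gene with the smallest, WRKY11 at 0.29 ± 0.08 (0.0486). Of the 8 WRKY genes 7 rose. WRKY18 (AT4G31800), which forms complexes with WRKY40, was 11 and 8.57 for Ler, 7.19 and 10.95 for ag-10, 80.1 and 99.8 for fhy3-68 and 36.9 and 84.0 for the double mutant. WRKY33 (AT2G38470), required for resistance to necrotrophic fungi, was 16.5 and 6.98 for Ler, 5.99 and 28.8 for ag-10, 90.8 and 140.1 for fhy3-68 and 45.9 and 138 for the double mutant. WRKY22 (AT4G01250), a factor downstream of MAP kinases in innate immunity, was 5.89 and 5.32 for Ler, 4.65 and 4.14 for ag-10, 17.0 and 20.8 for fhy3-68 and 7.88 and 14.8 for the double mutant. WRKY18 and WRKY22 had narrow ranges in the 4 libraries without fhy3-68, unlike WRKY33, where ag-10 replicate 2 was above the other libraries without fhy3-68. The averaged difference was 2.86 ± 0.26 for WRKY18 (adjusted p = 0.00277, the lowest of the 39 genes), 2.93 ± 0.55 for WRKY33 (0.0149) and 1.44 ± 0.19 for WRKY22 (0.00642). WRKY53 (AT4G23810), a regulator of leaf senescence, was 3.69 and 1.98 for Ler, 3.03 and 17.5 for ag-10, 17.1 and 26.1 for fhy3-68 and 11.4 and 24.6 for the double mutant. WRKY46 (AT2G46400), which acts in stomatal and defence responses, was 23.4 and 9.05 for Ler, 5.36 and 32.6 for ag-10, 83.9 and 72.3 for fhy3-68 and 35.4 and 79.0 for the double mutant. In WRKY53 the ag-10 replicate 2 library reached the level of fhy3-68 replicate 1, and its difference of 1.93 ± 0.51 (0.0419) and that of WRKY46 of 2.16 ± 0.56 (0.0398) lay near the threshold. WRKY11 (AT4G31550) was 19.4 and 19.5 for Ler, 17.7 and 21.4 for ag-10, 26.7 and 26.1 for fhy3-68 and 21.1 and 22.3 for the double mutant, and WRKY6 (AT1G62300), a factor of senescence and phosphate supply, was 3.62 and 4.28 for Ler, 4.65 and 4.14 for ag-10, 5.10 and 12.9 for fhy3-68 and 5.64 and 8.37 for the double mutant. WRKY11 moved little in any library, and WRKY6 was highest in fhy3-68 replicate 2. WRKY40, WRKY33 and WRKY53 overlap listed genes on the opposite strand.

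**Figure D4:**
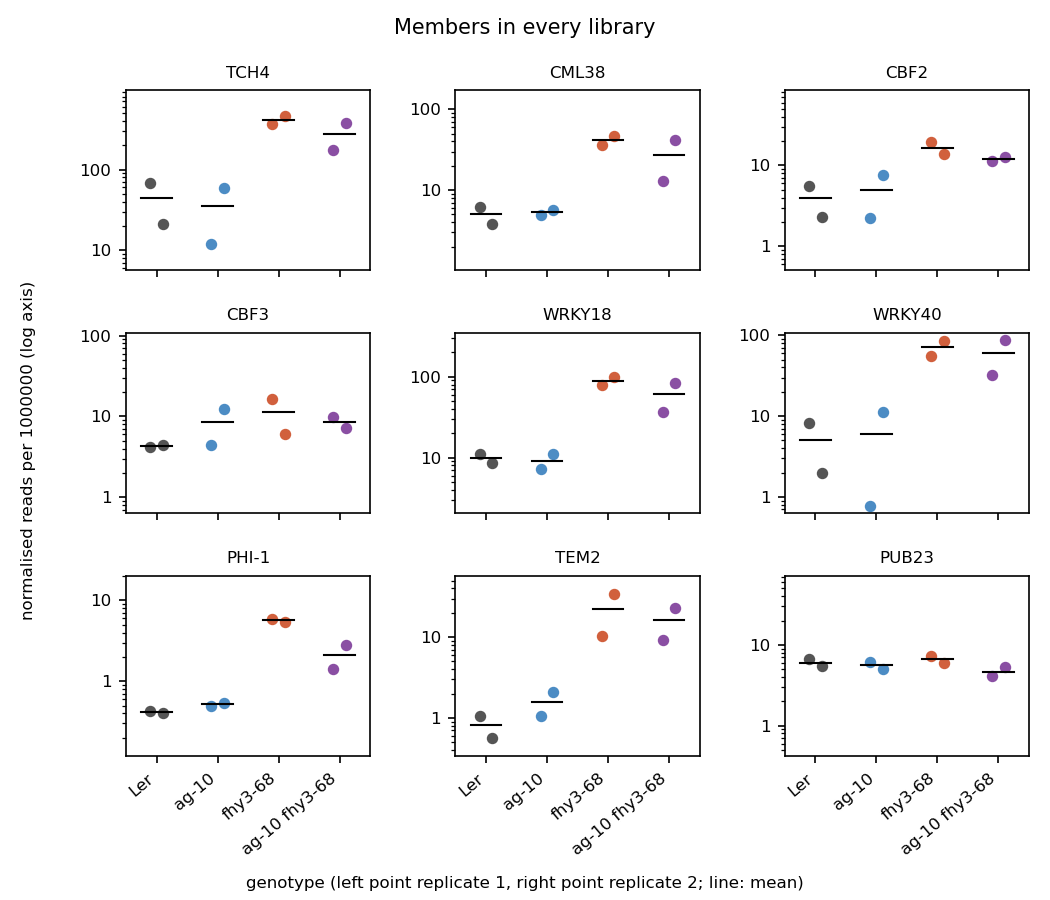
Normalised reads per 1000000 (log axis, the same span of folds in each panel) of 9 of the genes in the 8 libraries, with replicate 1 as the left and replicate 2 as the right point of a genotype and the mean as a line. WRKY18, CML38 and PHI-1 show narrow ranges in Ler and ag-10, all below the libraries with fhy3-68, WRKY40 shows replicates far apart in Ler and ag-10, and PUB23 is level.

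All 5 ERF factors of ethylene and jasmonate responses rose. ERF104 (AT5G61600), a substrate of the MAP kinase MPK6, was 34.0 and 10.2 for Ler, 5.99 and 32.6 for ag-10, 102 and 164 for fhy3-68 and 53.5 and 133 for the double mutant. ERF11 (AT1G28370), a repressor of ethylene synthesis genes, was 7.31 and 3.65 for Ler, 1.62 and 12.5 for ag-10, 36.9 and 41.2 for fhy3-68 and 18.4 and 35.1 for the double mutant. Both were lowest in ag-10 replicate 1, and in both the lowest library with fhy3-68 was above the highest without it. Averaged log2 differences were 2.65 ± 0.60 for ERF104 and 2.55 ± 0.54 for ERF11 (limma adjusted p = 0.0256 and 0.0213). ERF5 and ERF6, related factors that act in chitin and osmotic responses, followed. ERF5 (AT5G47230) was 19.2 and 7.30 for Ler, 4.16 and 15.8 for ag-10, 48.5 and 45.9 for fhy3-68 and 19.7 and 42.9 for the double mutant. ERF6 (AT4G17490) was 11.9 and 4.05 for Ler, 2.12 and 12.3 for ag-10, 35.6 and 37.9 for fhy3-68 and 12.9 and 28.7 for the double mutant. In both genes ag-10 fhy3-68 replicate 1 was only slightly above the highest library without fhy3-68. ERF4 (AT3G15210), a repressor with an EAR motif, was 52.9 and 26.4 for Ler, 22.6 and 43.3 for ag-10, 90.3 and 72.5 for fhy3-68 and 51.7 and 66.9 for the double mutant, and its Ler replicate 1 value was above that of ag-10 fhy3-68 replicate 1. The differences of ERF5, ERF6 and ERF4 were 1.86 ± 0.46, 2.04 ± 0.54 and 1.0 ± 0.27 (adjusted p = 0.0346, 0.0420 and 0.0428).

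SZF1 and SZF2, RNA-binding CCCH zinc fingers of salt stress responses whose upstream sequences are printed above, rose together. SZF1 (AT3G55980) was 105 and 35.7 for Ler, 24.3 and 75.6 for ag-10, 382 and 414 for fhy3-68 and 197 and 392 for the double mutant. SZF2 (AT2G40140) was 94.1 and 43.9 for Ler, 34.9 and 74.8 for ag-10, 258 and 296 for fhy3-68 and 145 and 267 for the double mutant. The order of the 8 libraries was the same in both genes, from ag-10 replicate 1 up to fhy3-68 replicate 2. Averaged log2 differences were 2.68 ± 0.45 and 2.02 ± 0.33 (limma adjusted p = 0.0111 and 0.0104). CAF1a and CAF1b, deadenylases that shorten poly(A) tails, missed the threshold. CAF1a (AT3G44260) was 69.9 and 30.2 for Ler, 15.8 and 73.5 for ag-10, 118 and 135 for fhy3-68 and 74.2 and 121 for the double mutant. CAF1b (AT5G22250) was 11.9 and 8.41 for Ler, 5.64 and 16.9 for ag-10, 16.6 and 19.7 for fhy3-68 and 10.5 and 17.3 for the double mutant. The libraries with fhy3-68 were above the others by a small margin in CAF1a and overlapped them in CAF1b. The differences were 1.45 ± 0.48 and 0.63 ± 0.33 (adjusted p = 0.0746 and 0.213).

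Of the 6 genes for kinase, membrane and ubiquitin proteins, PHI-1, MPK3, BAP1 and PUB22 rose. PHI-1 and PUB22 were listed only with the help of libraries with fhy3-68, so their calls are not support. MPK3 (AT3G45640), a MAP kinase of stress and immune signalling, was 38.5 and 31.7 for Ler, 26.3 and 72.8 for ag-10, 129 and 152 for fhy3-68 and 71.6 and 154 for the double mutant. BAP1 (AT3G61190), a membrane-associated C2 domain protein that restrains cell death, was 9.93 and 4.05 for Ler, 1.97 and 11.5 for ag-10, 41.9 and 38.8 for fhy3-68 and 16.5 and 35.4 for the double mutant. PHI-1 (AT1G35140) was 0.43 and 0.40 for Ler, 0.49 and 0.54 for ag-10, 5.94 and 5.4 for fhy3-68 and 1.43 and 2.81 for the double mutant, on 11 reads in both Ler libraries together. PHI-1 was low and even in the 4 libraries without fhy3-68, but on only 5 to 7 reads in each. BAP1 did not overlap between the libraries, and MPK3 overlapped because ag-10 replicate 2 was slightly above ag-10 fhy3-68 replicate 1. The averaged log2 difference was 1.62 ± 0.34 for MPK3, 2.37 ± 0.52 for BAP1 and 2.03 ± 0.21 for PHI-1 (limma adjusted p = 0.0213, 0.0230 and 0.00352). PEN1 (AT3G11820), a syntaxin of defence at the cell surface, was 33.5 and 29.6 for Ler, 26.6 and 44.0 for ag-10, 57.2 and 71.8 for fhy3-68 and 34.1 and 70.7 for the double mutant. PUB22 (AT3G52450) was 0.85 and 0.56 for Ler, 0.28 and 0.38 for ag-10, 1.68 and 1.8 for fhy3-68 and 0.61 and 1.61 for the double mutant, on 9 reads in ag-10. PUB23 (AT2G35930) was 6.67 and 5.4 for Ler, 6.07 and 5.06 for ag-10, 7.34 and 5.98 for fhy3-68 and 4.08 and 5.26 for the double mutant. PUB22 and PUB23 are close relatives that act together, and in these libraries PUB23 stayed within a range of 1.8-fold from lowest to highest, while PUB22 spanned 6.43-fold. PUB22 rose by 0.89 ± 0.25 (adjusted p = 0.0486), PEN1 differed by 0.76 ± 0.25 (0.0711) and PUB23 by -0.05 ± 0.14 (0.823). PUB22, PEN1 and PUB23 overlapped between libraries with and without fhy3-68.

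The 3 RAV factors, which repress growth and flowering, rose. TEM2 (AT1G68840), a repressor of FT that is also called RAV2, was 1.06 and 0.56 for Ler, 1.06 and 2.07 for ag-10, 10.3 and 34.3 for fhy3-68 and 9.11 and 23.0 for the double mutant. RAV1 (AT1G13260) was 19.2 and 15.0 for Ler, 9.03 and 24.1 for ag-10, 47.3 and 63.6 for fhy3-68 and 27.3 and 50.6 for the double mutant. TEM1 (AT1G25560), the paralog of TEM2, was 19.1 and 10 for Ler, 11.9 and 16.2 for ag-10, 27.3 and 45.2 for fhy3-68 and 19.6 and 31.9 for the double mutant. None of these genes overlapped between libraries with and without fhy3-68, and TEM2 ranged 61.2-fold from Ler replicate 2 to fhy3-68 replicate 2. The averaged log2 difference was 3.41 ± 0.44 for TEM2, 1.48 ± 0.32 for RAV1 and 1.07 ± 0.27 for TEM1 (limma adjusted p = 0.00579, 0.0225 and 0.0343). Of the MYB factors, MYB15 (AT3G23250), which binds CBF promoters and represses them, was 0.71 and 0.16 for Ler, 0.14 and 4.06 for ag-10, 4.33 and 8.43 for fhy3-68 and 4.35 and 8.13 for the double mutant. It rose by 2.4 ± 0.60 (adjusted p = 0.0349), with 2 reads in Ler replicate 2 and 2 in ag-10 replicate 1. MYB15 was listed only with the help of libraries with fhy3-68, so its call is not support. MYB51 differed by 2.19 ± 0.72 and missed the threshold (0.0739). For both MYB genes ag-10 replicate 2 was far above the other libraries without fhy3-68.

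The third comparison takes the genotypes in pairs. Against Ler, fhy3-68 plants had higher values of all 39 genes, and 6 passed the test on their own, CML38, ZAT6, WRKY18, WRKY22, PHI-1 and TEM2, against 2.26% of all genes called higher (3.05% in either direction). Their log2 differences were 2.94, 2.51, 3.14, 1.66, 2.75 and 3.91, with limma adjusted p between 0.0143 and 0.0487. PHI-1 was listed only through libraries with fhy3-68, so its call is not support. The counts over the 39 genes also include PUB22, MYB15 and MYB51, listed only with the help of such libraries. The median of the 39 genes was 2.31 (range 0.13 to 3.91, all genes -0.02), 34 had an unadjusted p under 0.05 against 24.4% of all genes, and 38 had both fhy3-68 libraries above both Ler libraries, which 26.5% of all genes showed. PUB23 was the exception. The count of 6 was 0 when either Ler library was left out, where limma called 0.00504% of all genes, and 1 without fhy3-68 replicate 2 (0.66% of all genes). It was 20 without ag-10 replicate 1 or replicate 2 (2.97% and 2.93%), 22 with DESeq2 (7.51%) and 18 in a fit of the 4 libraries compared (1.74%).

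Against Ler, ag-10 fhy3-68 plants had higher values of 38 genes, and WRKY18, PHI-1 and TEM2 passed the test, by 2.46 ± 0.37, 1.47 ± 0.30 and 3.55 ± 0.62 (limma adjusted p = 0.0270, 0.0429 and 0.0346), against 2.48% of all genes called higher (4.33% in either direction). As above, PHI-1 was listed only through libraries with fhy3-68, so its call is not support. The counts here also include PUB22, MYB15 and MYB51, listed only with the help of such libraries. The median was 1.61, and both double mutant libraries were above both Ler libraries for 34 genes, against 31.1% of all genes. Against ag-10, 1 gene passed, WRKY18 by 2.58 ± 0.37 (adjusted p = 0.0343), against 0.992% of all genes called higher (1.5% in either direction). The median was 1.77, and 31 genes had both double mutant libraries above both ag-10 libraries, against 27.8% of all genes. Against Ler, the count of 3 was 0 when either Ler library was left out (0.0101% of all genes called) or ag-10 fhy3-68 replicate 2 (0.73%), 7 without ag-10 replicate 1 or replicate 2 (at most 2.46%), and 5 without either fhy3-68 library (14.1%). DESeq2 called 13 (8.0% of all genes), and the fit of the libraries compared 20 (14.7%). Against ag-10, the count of 1 was 0 when a Ler library was left out (0.0151% of all genes), ag-10 replicate 1 or replicate 2 (0.00504% and 0.0101%), or ag-10 fhy3-68 replicate 2 (0.327%). It was 3 without fhy3-68 replicate 1 or replicate 2, where 9.17% and 9.12% of all genes were called, and 12 with DESeq2 (5.38%).

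The effect of fhy3-68 can be set side by side in both backgrounds, with no library in common. In the ag-10 background it was smaller than in the AG background for 37 of the 39 genes (94.9%, against 49.6% of all genes), and the median difference of the effects was -0.45. Pearson's r between the effects was 0.92 across the 39 genes and 0.83 across all genes, which are not independent replicates and share normalisation. The interaction, a test of the difference itself, called none of the 39 genes in limma, edgeR's quasi-likelihood test or DESeq2, against 0.00504% of all genes in limma, and 1 had an unadjusted p under 0.05. The median difference of the effects was 0.30 without ag-10 replicate 2, -0.02 without ag-10 fhy3-68 replicate 1, -0.07 without Ler replicate 2 and -1.29 without ag-10 replicate 1, so its direction or size rested on single libraries of 3 genotypes. Across the 39 genes the averaged difference and the within-genotype SD had r = 0.73 (0.44 across all genes), so genes that differed most between genotypes also varied most within them.

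**Figure D5:**
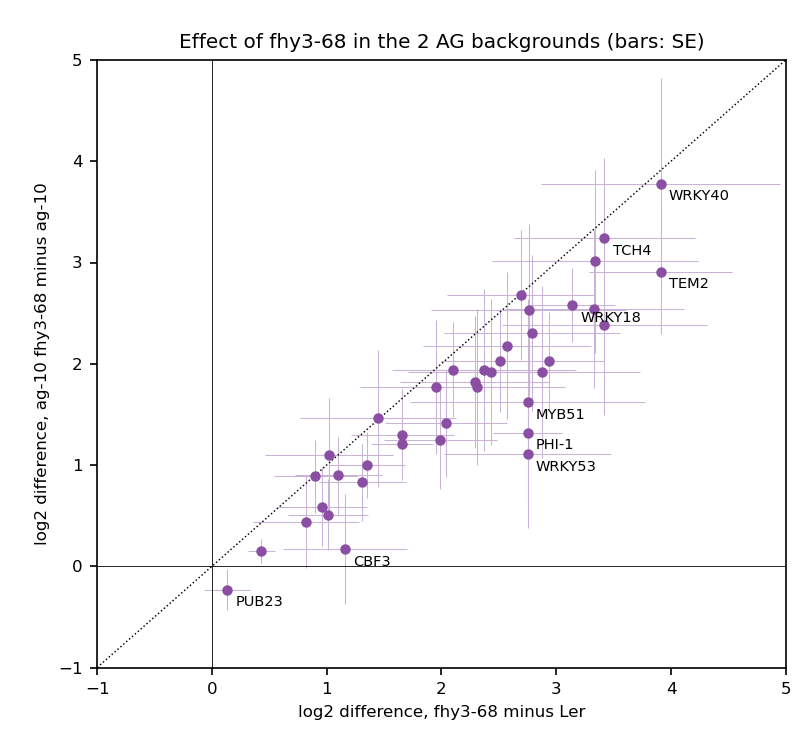
Log2 difference of fhy3-68 against Ler (x axis) and of ag-10 fhy3-68 against ag-10 (y axis) for the 39 genes, 1 point a gene. Nearly all points lie to the right of 0 and above it, and 37 of 39 lie below the line of equal effects.

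Against fhy3-68, the double mutant had lower fitted values of all 39 genes, with a median log2 difference of -0.47 (range -1.29 to -0.02). None passed in limma, where 0.0% of all genes did, nor in edgeR's quasi-likelihood test or DESeq2, and 3 had an unadjusted p under 0.05. Both fhy3-68 libraries were above both double mutant libraries for 15 genes, against 11.2% of all genes. Without ag-10 fhy3-68 replicate 1 the median was -0.09, and without replicate 2 it was -0.99. Comparing ag-10 with Ler, none of the 39 genes passed in any of these 3 tests and 0 had an unadjusted p under 0.05, where limma called 0.00504% of all genes. The median was -0.12, and it was 0.67 without ag-10 replicate 1, 0.34 without Ler replicate 1 and 0.08 in both edgeR and DESeq2. Both ag-10 libraries were above both Ler libraries for PHI-1 (15.1% of all genes) and below both for WRKY22 and PUB22 (17.4% of all genes).

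Relatives and partners of the 39 genes, 9 lists with 83 listed genes of 96 entries and no member among them, were counted in the averaged fhy3-68 contrast. Of the 83 genes 32 rose, 1 fell and 50 missed the threshold, where 10.6% of all genes were called higher and 17.9% in either direction. The median log2 difference was 0.66. These lists too were chosen with earlier results of these data known. Of these 83 genes 14 met the minimum only with the help of libraries with fhy3-68, among them CML41, XTH18, ZAT7, ZAT8, AZF1, WRKY26, PUB24, BAP2 and LTI30 named below, and without them 22 of 69 rose, against 9.96% of all genes. Across the alternatives the number called ranged from 12 without Ler replicate 2, where 4.68% of all genes were called, to 44 with the replicate numbers as a block (24.8%). Of 10 reference genes 2 rose, ACT2 by 0.40 and YLS8 by 0.38, and 1 fell, UBC21 by -0.22.

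Of 9 touch and calcium relatives 6 rose. The touch gene CAM2 (TCH1) did not, with a log2 difference of -0.06 ± 0.1 (limma adjusted p = 0.711). CML41, a calmodulin-like protein of plasmodesmata, was 0.43 and 0.63 for Ler, 0.63 and 1.53 for ag-10, 3.22 and 9.08 for fhy3-68 and 8.43 and 5.98 for the double mutant. XTH18, a cell wall enzyme of the TCH4 family, was 0.50 and 0.16 for Ler, 0.07 and 0.69 for ag-10, 3.64 and 3.82 for fhy3-68 and 0.82 and 2.75 for the double mutant. CML47 was 0.64 and 1.03 for Ler, 1.27 and 4.90 for ag-10, 5.87 and 7.64 for fhy3-68 and 4.01 and 6.69 for the double mutant. Their averaged log2 differences were 2.44 ± 0.34, 1.86 ± 0.37 and 1.66 ± 0.36 (limma adjusted p = 0.00697, 0.0169 and 0.0219), and all 3 were lowest in Ler or in ag-10 replicate 1. CML41 and XTH18 were listed only with the help of libraries with fhy3-68, so their calls are not support. None of the 8 upstream regulators of the CBF genes passed the test (range -0.05 to 0.44). Of 11 CBF target genes 1 rose, COR47, a dehydrin, by 1.72 ± 0.38 (adjusted p = 0.0241). This count is near the share of all genes called higher, 10.6%. Over the 11 targets the median SD was 0.66 within genotypes and 0.44 between them. COR47 was 25.6 and 30.2 for Ler, 23.9 and 46.4 for ag-10, 239.6 and 73.3 for fhy3-68 and 96.4 and 62.1 for the double mutant. RD29A, a cold and drought gene, was 4.12 and 7.06 for Ler, 9.10 and 55.3 for ag-10, 162 and 6.20 for fhy3-68 and 22.3 and 13.1 for the double mutant, and LTI30, another dehydrin, was 0.21 and 0 for Ler, 0.14 and 1.0 for ag-10, 31.9 and 1.01 for fhy3-68 and 1.5 and 1.14 for the double mutant. These 3 genes were far above the other libraries in fhy3-68 replicate 1, the library in which the CBF genes were highest, but RD29A and LTI30 were chosen after their values were seen. Of the 11 CBF targets 8 were highest in fhy3-68 replicate 1, COR414-TM1 narrowly (27.3 against 27.1 in ag-10 replicate 2), and COR15A, KIN2 and an LTI6-like gene (AT4G30650) were highest in ag-10 replicate 2. The COR47 call was lost without either Ler library, ag-10 replicate 1 or ag-10 fhy3-68 replicate 1.

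Of 8 zinc finger relatives 4 rose, where 10.6% of all genes were called higher. The largest differences were in ZAT7 (2.11 ± 0.47), AZF1 (1.74 ± 0.39) and ZAT8 (1.25 ± 0.21), for which limma gave adjusted p = 0.0241, 0.0241 and 0.0103. ZAT7, AZF1 and ZAT8 were listed only with the help of libraries with fhy3-68, so their calls are not support. AZF2, the other called gene, rose by 0.89 ± 0.13 (limma adjusted p = 0.00846). Of 11 WRKY relatives 6 rose. WRKY25, a relative of WRKY33, rose by 2.31 ± 0.43 and WRKY48 by 1.87 ± 0.19 (adjusted p = 0.0144 and 0.00319), and WRKY26 was 0.07 and 0 for Ler, 0.14 and 0.08 for ag-10, 1.89 and 3.60 for fhy3-68 and 2.17 and 2.27 for the double mutant, with 1 read in Ler. WRKY26 was listed only through libraries with fhy3-68, so its call is not support. ERF109, a fast responder to wounding, rose by 3.11 ± 0.87, ERF105 by 2.23 ± 0.44 and DDF1, a CBF relative, by 2.17 ± 0.47 (adjusted p = 0.0475, 0.0169 and 0.0228), among 6 of 12 ERF and DREB relatives that rose. ERF8, an EAR repressor, was the 1 relative that fell, and it was 16.6 and 16.3 for Ler, 13.96 and 15.4 for ag-10, 9.16 and 5.4 for fhy3-68 and 6.46 and 5.14 for the double mutant. All 4 libraries with fhy3-68 were below the other 4 for ERF8, a log2 difference of -1.22 ± 0.17 (adjusted p = 0.00662).

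MYB77, MYB44 and MYB73, relatives within the same subgroup of MYB factors, rose by 1.40 ± 0.28, 1.36 ± 0.23 and 1.34 ± 0.21 (limma adjusted p = 0.0170, 0.0118 and 0.00900), and they were the called ones of 5 MYB relatives. Of 9 genes of the MAP kinase cascade 2 rose, MKK9 by 1.59 ± 0.31 and MKK4, a kinase that activates MPK3, by 0.99 ± 0.19 (adjusted p = 0.0161 and 0.0165). For so few genes this count is not far above the share of all genes called higher, 10.6%. Of 10 partners of PEN1, BAP1, PUB22 and CAF1, 4 rose, against the same share of all genes. Among these 4, PUB24 and BAP2 were listed only with the help of libraries with fhy3-68, so their calls are not support. SYP122, the closest relative of PEN1, was 2.41 and 1.90 for Ler, 1.62 and 10.5 for ag-10, 26.6 and 43.9 for fhy3-68 and 20.3 and 43.4 for the double mutant. Its difference was 3.18 ± 0.51 (adjusted p = 0.00962), against 0.76 for PEN1, and the ag-10 replicate 2 library was above the other libraries without fhy3-68 in both. PUB24, a relative of PUB22, rose by 1.76 ± 0.37 (adjusted p = 0.0199), and BAP2, a relative of BAP1, had no read in Ler and was 0 and 0 for Ler, 0 and 0.46 for ag-10, 1.19 and 0.79 for fhy3-68 and 0.61 and 1.08 for the double mutant.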

How the data were processed

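Short-read sequencing of RNA gave 8 libraries of 4 genotypes, which were grouped by the library titles, which the series describes as biological replicates; p-values measure the spread between them. The deposited values are a normalised signal, that is, size-factor-normalised reads on a scale of 1000000. The unit was worked out from the values: in each library 100% of them were whole multiples of 1 read, to within 0.1 read. The submitters' processing notes list edgeR 3.10.0, HTSeq 0.6.1p1, TopHat2 2.0.14 and CASAVA 1.8, with no roles. Not given in the sources used here are the reference build and gene models, how reads were counted and whether strand was used. Every listed gene reached a value of 1 in 2 or more libraries; PHI-1, PUB22, MYB15 and MYB51 did so only with the help of libraries with fhy3-68. Reads without molecular identifiers are not independent molecules.

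The log2(value + 0.5) of each gene was fitted in limma 3.58.1 under R 4.3.3 with the trend option, 1 coefficient for each genotype and all 8 libraries together (4 residual and 3.41 prior degrees of freedom). Genes were called at a two-sided Benjamini-Hochberg adjusted p under 0.05 over 19853 genes. This scale understates the change of low genes. Errors after ± are standard errors of that fit. The averaged contrast is the mean of fhy3-68 and ag-10 fhy3-68 minus the mean of Ler and ag-10. Alternatives were pseudocounts of 0.1 and 1, a mean value of at least 2, scaling by library totals, edgeR 4.0.16 (quasi-likelihood, TMM) and DESeq2 1.42.0 on the recovered reads, a replicate block, the libraries compared alone, and leaving out each library. The same alternatives were run on the relatives and partners after seeing the data. On simulated counts for the 19853 genes, the averaged fhy3-68 contrast in limma recovered 90 of 100 genes changed 2-fold and 100 of 100 changed 4-fold, and called 19 unchanged genes. The changed genes were drawn at random from genes with many reads, and each gene was simulated on its own. This check therefore does not cover genes with few reads, nor members that vary widely and shift together between libraries.

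The members and lists were chosen with earlier results of these data known. Values are given for members called in any contrast, those with the widest and narrowest within-genotype SD and the leading 2 of each role group, and for up to 3 called genes of each list of relatives. Others with values (CAM2, RD29A, LTI30 and the members not called) were added after their values were seen. Gene names came from RefSeq TAIR10.1, which matched 19811 of the 19853 identifiers (99.79%), and its Columbia sequence was used for the upstream windows. The names CBF3, ZAT10, ZAT12, SZF2, PEN1 and TEM2 stand for DREB1A, STZ, RHL41, CZF1, SYP121 and RAV2 there.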

Additional observations from a re-analysis of the deposited data

Results flagged for a closer look

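PHI-1 was the 1 member for which both ag-10 libraries (0.49 and 0.54) were above both Ler libraries (0.43 and 0.40) while both ag-10 fhy3-68 libraries (1.43 and 2.81) were below both fhy3-68 libraries (5.94 and 5.4), so ag-10 went with opposite directions in the presence and absence of fhy3-68. The difference between the effects was -1.44 ± 0.42 on the log2(value + 0.5) scale (limma, unadjusted p = 0.01, adjusted p = 1.0), which did not pass the threshold. The gap between ag-10 and Ler rested on 14 reads and 11 reads.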

How the results depend on the processing

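The median log2 differences of the members kept their sign in the 3 contrasts of fhy3-68 libraries with libraries without it and in the averaged contrast when each library was left out in turn: 1.76 to 2.83 for fhy3-68 against Ler, 1.16 to 2.16 for ag-10 fhy3-68 against Ler, 0.80 to 2.55 against ag-10 and 1.47 to 2.52 averaged. They also did so for ag-10 fhy3-68 against fhy3-68 (-0.99 to -0.09). The sign changed for ag-10 against Ler (-0.72 to 0.67, the highest without ag-10 replicate 1, and 0.08 in edgeR and in DESeq2 with all libraries) and for the interaction (-1.29 to 0.30); the cause was not tested. The within-genotype SD had a median between 0.57 and 0.80. With a library left out, members called ranged from 0 to 20 for fhy3-68 against Ler (0.00504% to 17.1% of all genes), 0 to 7 for ag-10 fhy3-68 against Ler (0.0101% to 14.1%), 0 to 3 against ag-10 (0.00504% to 9.17%), 9 to 33 averaged (4.68% to 32.1%) and 0 to 7 in the F test (0.0101% to 13.2%), and were 0 in the other 3 contrasts; the lone library left in a genotype is assumed to vary like the others.

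With DESeq2, 22 members were called for fhy3-68 against Ler (7.51% of all genes), 13 for ag-10 fhy3-68 against Ler (8.0%), 12 against ag-10 (5.38%) and 20 by the test over all genotypes (9.6%). With only the libraries compared, the first of these counts was 18 (1.74%) and the second 20 (14.7%). The cause of these changes was not tested. With the replicate block the counts were 14, 8, 3 and 11, where 9.31%, 9.87%, 4.67% and 7.5% of all genes were called. The labels do not say that a number marks a shared collection. Deviations of same-numbered libraries correlated by 0.17, 0.28 and 0.45 among the 3 mutant genotypes and by -0.11 to 0.07 between Ler and these, so the numbers were not taken to pair the libraries. Of the 31 averaged calls, 25 held under every alternative that kept all libraries, and WRKY53, WRKY11, ERF6, ERF4, PUB22 and MYB15 were lost in at least 1. With 2 libraries a genotype and members whose replicates differ by 2-fold or more, single contrasts have little precision.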
